A study of Mus musculus with 3 samples.

Results

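Heat shock proteins and their co-chaperones are described here in stromal cells of subcutaneous inguinal fat, as 35 genes that were listed by name out of 32285 genes in the files. Each of 3 male wild-type C57BL/6J mice aged 8 weeks gave 1 single-cell library, and the labels name no transgene or treatment. The stromal vascular fraction (SVF), which is what is left of collagenase-digested fat after the floating adipocytes are removed, was sorted for cells lacking CD31 and CD45, markers of endothelial cells and leukocytes. All libraries belong to 1 condition, so cell states were compared within mice. A barcode was kept if over 500 genes were seen in it and under 5% of its counts were mitochondrial, which left 12984, 6414 and 15179 cells in mice 1, 2 and 3.

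Kept cells were divided by raw counts of unique molecular identifiers (UMIs) of 6 genes, none of which is among the 35. The progenitor gate took cells with at least 3 UMIs of Dpp4 and Pi16 together and at most 1 of Icam1 and Fabp4 together. The preadipocyte gate took cells with at least 4 UMIs of Icam1 and Fabp4 and at most 1 of Dpp4. The regulatory gate took cells with at least 1 UMI each of Clec11a and Fmo2 and at most 1 each of Fabp4 and Dpp4. The gates held 7399, 3169 and 9273 progenitor cells, 2278, 1394 and 1889 preadipocyte cells, and 270, 384 and 404 regulatory cells in mice 1, 2 and 3. Cells that met more than 1 gate were left out of all gates.

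Chaperones bind unfolded proteins and either refold them or hand them on for degradation. When unfolded proteins build up in the cytosol, the transcription factor HSF1 is released from its chaperones and raises the inducible genes of the HSP70, HSP90, HSP40 and small heat shock protein families. Close relatives such as Hspa8 and Hsp90ab1 are made in unstressed cells, while the chaperones of the endoplasmic reticulum answer to a separate pathway, the unfolded protein response, and those of mitochondria fold imported proteins. Inducible heat shock genes and immediate early genes are also known to rise when tissue is digested into single cells. The 35 genes were split by their known regulation and location into 13 inducible, 12 constitutive, 6 endoplasmic and 4 mitochondrial members.

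The libraries held between 79801002 and 100846072 UMIs, and the median kept cell had between 6667 and 12193 UMIs, with mouse 2 the deepest. Regulatory cells were the shallowest of the gates, with medians of 4945, 10104.5 and 4575 UMIs in mice 1, 2 and 3. Medians were 7329, 12052 and 6690 UMIs in progenitor and 8083, 12977 and 7296 UMIs in preadipocyte cells. Pairs of libraries shared between 52 and 81 cell barcodes. The fibroblast genes Pdgfra, Dcn, Col1a1, Ly6a and Cd34 summed to between 18630 and 37736 UMIs per 1000000 UMIs of a gate (CPM, the level used throughout). Lists of endothelial, leukocyte, mural, adipocyte, glial, epithelial, erythroid and cycling markers summed to at most 88.2 CPM in any gate and mouse. All 5 adipocyte markers, among them Adipoq and Plin1, were at 0 in the regulatory gate. The highest sums were 88.2 CPM for adipocyte markers in the preadipocyte gate of mouse 1 and 77.0 CPM for epithelial markers in the regulatory gate of mouse 3. Leaving out every cell with a UMI of Pecam1, Ptprc, Mki67 or Top2a left the number of members called in the comparisons with the progenitor gate as it was, at 24 and 21.

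The inducible class was higher in preadipocyte than in progenitor cells of every mouse, and the endoplasmic class changed little. Inducible members summed to 4109, 4166 and 5405 CPM in the progenitor gate of mice 1, 2 and 3, to 8152, 6545 and 10395 CPM in the preadipocyte gate, and to 5563, 5473 and 7151 CPM in the regulatory gate. The lowest preadipocyte sum lay above the highest progenitor sum. The log2 ratio of preadipocyte to progenitor sums was 0.86 ± 0.18 (SD, n = 3 mice), which is 1.82-fold, and that of regulatory to progenitor sums was 0.41 ± 0.023, which is 1.33-fold.

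Constitutive members summed to 4757, 3821 and 5315 CPM in the progenitor gate, 6285, 4458 and 6746 CPM in the preadipocyte gate, and 4427, 3556 and 4963 CPM in the regulatory gate. Their preadipocyte to progenitor log2 ratio of 0.32 ± 0.092 rested largely on Hspa8 and was 0.099 without it. Endoplasmic members summed to 3546, 2126 and 3552 CPM in the progenitor gate, 3637, 2106 and 3391 CPM in the preadipocyte gate, and 3233, 2089 and 3315 CPM in the regulatory gate. Their preadipocyte to progenitor log2 ratio was -0.015 ± 0.052, with mice on both sides of 0. Mitochondrial members summed to 516, 520 (519.8) and 581 CPM, 928, 850 (850.2) and 1094 CPM, and 557, 595 and 692 CPM in the same order of gates. Per UMI of the constitutive class, inducible members gave between 0.864 and 1.09 UMIs in the progenitor gate, between 1.30 and 1.54 in the preadipocyte gate and between 1.26 and 1.54 in the regulatory gate. A class sum is a description of its members and was not tested.

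**Figure D1:**
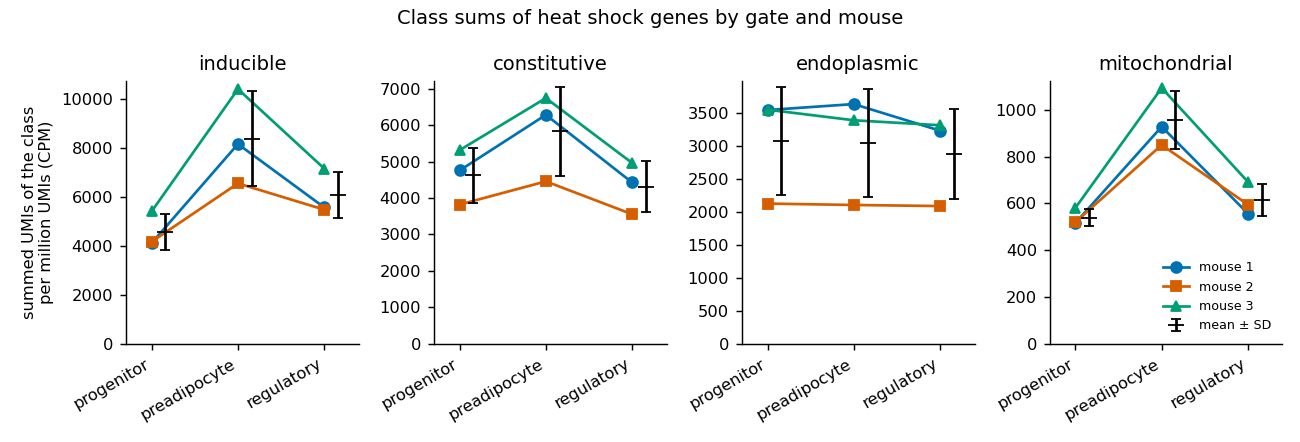
Summed level of each class (CPM, from 0) in the progenitor, preadipocyte and regulatory gates, with 1 line per mouse and the mean ± SD of 3 mice beside it. The inducible sum is highest in the preadipocyte gate of each mouse, up to 10395 CPM in mouse 3, while the endoplasmic lines are flat and mouse 2 lies lowest, near 2106 CPM.

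Immediate early genes were also higher in preadipocyte and regulatory than in progenitor cells. A list of 14 such genes, among them Fos, Jun and Egr1, summed to 19778, 18229.6 and 15473 CPM in the progenitor gate, 29491, 23365 and 26746 CPM in the preadipocyte gate, and 27376, 23764 and 25956 CPM in the regulatory gate. Of these 14 genes, 9 were higher and 2 lower in the preadipocyte than in the progenitor gate, and 9 were higher and 1 lower in the regulatory than in the progenitor gate. Between preadipocyte and regulatory gates 1 was higher and 4 were lower, while the inducible sums were higher in the preadipocyte gate of each mouse. The median mitochondrial share of the cells was 1.29%, 1.93% and 1.48% in the progenitor gate and 1.67%, 2.69% and 2.01% in the preadipocyte gate. In the regulatory gate it was 1.82%, 2.59% and 1.96%. In gated cells under the median share of immediate early genes of their mouse, a common limit chosen after seeing the data, the inducible log2 ratio of preadipocyte to progenitor sums was 0.37. That limit left 545, 470 and 335 preadipocyte cells and 62, 141 and 70 regulatory cells. The inducible sums of the cells under it were 3409, 3307 and 3996 CPM in the progenitor gate and 5163, 4192 and 4483 CPM in the preadipocyte gate. In the regulatory gate they were 3779, 4184 and 3863 CPM, below the progenitor sum in mouse 3. Immediate early sums of these cells were 13966, 12607 and 9903 CPM in the progenitor and 15701, 13948 and 11695.5 CPM in the preadipocyte gate. In the regulatory gate they were 12528, 13405 and 9833 CPM. A planned limit kept cells under the median of their mouse and gate. Inducible sums were then 3286, 3087 and 3785 CPM in the progenitor and 6514, 4945 and 7189 CPM in the preadipocyte gate. Immediate early sums were then 12851, 11653 and 9175 CPM in the progenitor and 20973, 16016 and 17509 CPM in the preadipocyte gate. The part of tissue digestion in these levels was not tested.

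To see which members differed between gates, UMIs were summed per gate and mouse and tested with edgeR's quasi-likelihood test, with mouse as a block and Benjamini-Hochberg adjustment over 13264 genes. Of 35 members, all of which passed the filter on low counts, 15 were higher and 9 lower in the preadipocyte than in the progenitor gate. Among all genes tested, 27.2% were higher and 29.2% lower. By class, 8 of 13 inducible members were higher and 4 lower, 4 of 12 constitutive members were higher and 3 lower, 1 of 6 endoplasmic members was higher and 2 lower, and 2 of 4 mitochondrial members were higher. The median log2 fold change was 0.55 for the inducible, 0.14 for the constitutive, 0.052 for the endoplasmic and 0.46 for the mitochondrial members, beside 0.0044 for all genes tested. Leaving out each mouse in turn kept 18 of the 24 calls, and the calls of Dnajb11, Dnajb6, Dnajc3, Hsf1, Hsp90ab1 and Hspb1 were lost without at least 1 mouse.

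**Figure D2:**
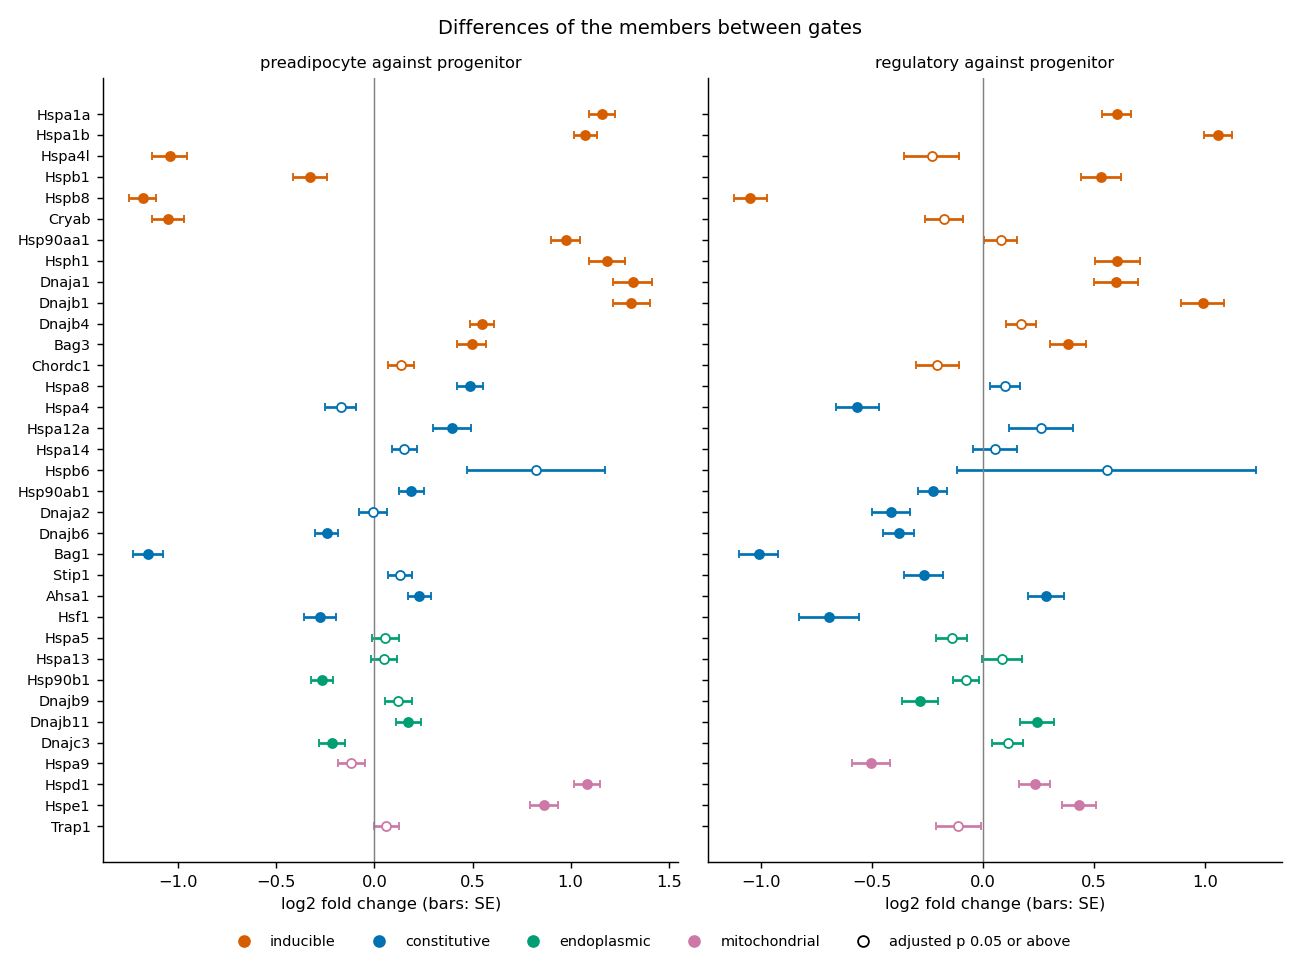
Log2 fold change (x axis, bars SE, edgeR on 3 mice) of all 35 members between the preadipocyte and progenitor gates and between the regulatory and progenitor gates, coloured by class. Filled points have an adjusted p under 0.05, and the inducible members lie on both sides of 0, from -1.18 for Hspb8 to 1.32 for Dnaja1 in the preadipocyte comparison.

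Hspa1a and Hspa1b encode the inducible HSP70, which refolds proteins after heat or toxic stress, and they lie side by side at chr17:34969190-34972156 and chr17:34956436-34959238 (GRCm38, minus strand). Hspa1a was at 366, 556 and 598 CPM in the progenitor gate of mice 1, 2 and 3, at 891, 1196 and 1428 CPM in the preadipocyte gate, and at 590.4, 789 and 919 CPM in the regulatory gate. Every preadipocyte value lay above every progenitor value. The log2 fold change between preadipocyte and progenitor gates was 1.16 ± 0.065 (SE, adjusted p = 1.6e-08), and between regulatory and progenitor gates 0.60 ± 0.066 (adjusted p = 1.4e-05).

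Hspa1b was at 215, 364 and 379 CPM in the progenitor gate, at 459, 806 and 838 CPM in the preadipocyte gate, and at 447, 789 and 762 CPM in the regulatory gate. It was higher than in the progenitor gate by 1.07 ± 0.060 in the preadipocyte gate (adjusted p = 1.6e-08) and by 1.06 ± 0.062 in the regulatory gate (adjusted p = 6.5e-08). Between preadipocyte and regulatory gates Hspa1a differed by 0.56 ± 0.066 (adjusted p = 5.6e-05), and the difference of Hspa1b was 0.018 ± 0.062 (adjusted p = 0.88). Under the common limit on immediate early genes these values were 0.067 (adjusted p = 0.82) and -0.42 (adjusted p = 0.067), so neither was called. Both genes encode nearly the same protein, and reads could have been split between them, so their separate values are uncertain.

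The 250 bases before the start sites of Hspa1a and Hspa1b were alike at 247 positions. Both hold 1 pair of inverted units of the heat shock element, the letters to which HSF1 is known to bind (RefSeq, GRCm38.p6, minus strand, the pair in capitals). The pair is shown because these neighbours share it and both were higher in preadipocyte and regulatory than in progenitor cells. The stretches lie at chr17:34972231-34972282 and chr17:34959313-34959364.
Hspa1a: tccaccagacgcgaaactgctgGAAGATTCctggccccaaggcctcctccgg
Hspa1b: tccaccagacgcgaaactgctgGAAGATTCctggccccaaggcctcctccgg

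Dnajb1 and Dnaja1 are HSP40 co-chaperones that bring clients to HSP70 and start its ATPase. Dnajb1 (chr8:83608193-83612653) was at 361, 359.8 and 434 CPM in the progenitor gate, 1163, 753 and 1103 CPM in the preadipocyte gate, and 814, 638 and 864 CPM in the regulatory gate. The gates did not overlap with the progenitor gate, and the log2 fold changes were 1.31 ± 0.094 (adjusted p = 1.5e-07) for preadipocyte and 0.99 ± 0.095 (adjusted p = 4.6e-06) for regulatory cells. Dnaja1 was at 627, 543 and 622 CPM in the progenitor gate and 1716, 1083 and 1967 CPM in the preadipocyte gate, a log2 fold change of 1.32 ± 0.099 (adjusted p = 2.3e-07), the largest rise among the members in this comparison. Its values in the regulatory gate, 946, 758 and 1043 CPM, also lay above those of the progenitor gate.

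Hsph1, an HSP110 that helps HSP70 to exchange its nucleotide, was at 159, 84.5 and 246 CPM in the progenitor gate and at 438, 157 and 626 CPM in the preadipocyte gate. The log2 fold change was 1.19 ± 0.094 (adjusted p = 3.9e-07), and the gates overlapped because mouse 2 was low in both. Hsp90aa1, the inducible form of cytosolic HSP90, was at 990.5, 789 and 1270 (1269.5) CPM in the progenitor gate, 2225, 1395 and 2712 CPM in the preadipocyte gate, and 1048, 831 and 1348 CPM in the regulatory gate. It rose by 0.98 ± 0.073 from progenitor to preadipocyte cells (adjusted p = 2.4e-07), while the regulatory difference of 0.079 ± 0.074 did not pass the test (adjusted p = 0.43). The HSP40 Dnajb4 (log2 fold change 0.55) and Bag3, which links HSP70 to small heat shock proteins and autophagy (0.50), were also higher in preadipocyte cells. Bag3 was not called under the common limit on immediate early genes (0.12, adjusted p = 0.29). For Chordc1, an HSP90 co-chaperone, the value of 0.14 did not pass the test.

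The other side of the inducible class was made of small heat shock proteins, which hold unfolded proteins without ATP, and of Hspa4l. Hspb8, the partner of Bag3, was at 305, 341 and 397 CPM in the progenitor gate, 155, 142 and 181 CPM in the preadipocyte gate, and 163, 156 and 187 CPM in the regulatory gate. It fell by 1.18 ± 0.068 on the log2 scale in preadipocyte cells (adjusted p = 2.0e-08) and by 1.05 ± 0.075 in regulatory cells (adjusted p = 3.3e-07), with no overlap with the progenitor gate. Cryab (alpha B-crystallin) was at 260.1, 279.9 and 388 CPM in the progenitor gate, 132, 154 and 175 CPM in the preadipocyte gate, and 259, 261 and 294 CPM in the regulatory gate. It was lower in preadipocyte than in progenitor cells by a log2 fold change of -1.05 ± 0.081 (adjusted p = 2.9e-07) and than in regulatory cells by -0.87 ± 0.087 (adjusted p = 1.3e-05). The value for Hspa4l, a relative of HSP110, was -1.04 ± 0.088 (adjusted p = 7.1e-07).

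Hspb1 (HSP25) differed from the progenitor gate in opposite directions in the other gates. It was at 311, 405 and 428 CPM in the progenitor gate, 229, 307 and 429 CPM in the preadipocyte gate, and 457, 576 and 623 CPM in the regulatory gate. All regulatory values lay above those of both other gates, with a log2 fold change of 0.53 ± 0.091 over progenitor cells (adjusted p = 5.2e-04). Under the common limit on immediate early genes that value was 0.26 and was not called (adjusted p = 0.35). The preadipocyte gate was lower than the regulatory gate by a log2 fold change of -0.86 ± 0.092 (adjusted p = 2.4e-05). The fall of 0.33 ± 0.088 from progenitor to preadipocyte cells (adjusted p = 0.0068) was absent in mouse 3, and without mouse 1 or mouse 2 its adjusted p was 0.061 or 0.091.

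**Figure D3:**
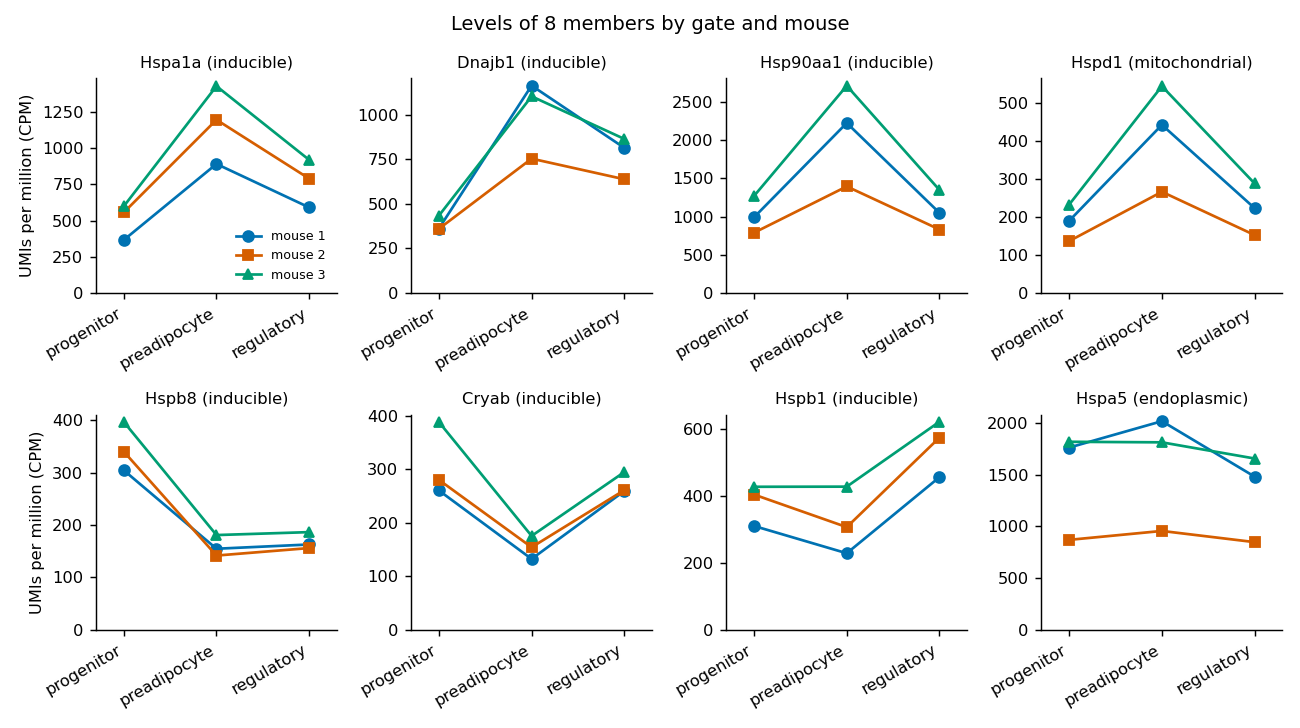
Level (CPM, y axis from 0) of 8 members in the gates, with 1 line per mouse. Hspa1a, Dnajb1, Hsp90aa1 and Hspd1 peak in the preadipocyte gate of each mouse, Hspb8 and Cryab are lowest there or near it, and Hspb1 is highest in the regulatory gate. Hspa5 is low in mouse 2 at 847 to 955 CPM, and its differences between gates did not pass the test.

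Among the constitutive members, Hspa8 was higher in preadipocyte cells and Bag1 was lower in both other gates than in progenitor cells. Hspa8, the HSC70 of unstressed cells, was at 2161, 1813 and 2535 CPM in the progenitor gate, 3401, 2444 and 3676 CPM in the preadipocyte gate, and 2277, 1989 and 2695 CPM in the regulatory gate. Its log2 fold change between preadipocyte and progenitor gates was 0.49 ± 0.066 (adjusted p = 4.8e-05), and that between regulatory and progenitor gates, 0.098 ± 0.066, did not pass the test (adjusted p = 0.27). Hsp90ab1, the constitutive cytosolic HSP90, was at 1763, 1335 and 1896 CPM, 2133, 1463 and 2363 CPM, and 1557, 1089 and 1648 CPM in the progenitor, preadipocyte and regulatory gates. Its rise of 0.19 ± 0.063 (adjusted p = 0.025) was lost without mouse 1 or mouse 3 (adjusted p = 0.058 and 0.14), and under the common limit on immediate early genes the value was -0.15. Hspa8, Hsp90ab1, Hspd1 and Hspe1 have processed copies in the genome, and Hspa8 overlaps small nucleolar RNA genes on its strand, which makes their counts less certain.

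Bag1, which releases ADP from HSP70, was at 245, 222 and 259.6 CPM in the progenitor gate, 123, 102 and 115 CPM in the preadipocyte gate, and 145, 96.3 and 128 CPM in the regulatory gate. It was lower than in the progenitor gate by a log2 fold change of -1.15 ± 0.079 in preadipocyte cells (adjusted p = 9.6e-08) and of -1.01 ± 0.090 in regulatory cells (adjusted p = 2.2e-06). Hsf1 itself was at 23.3, 21.8 and 25.0 CPM in the progenitor gate, 20.4, 17.9 and 21.96 CPM in the preadipocyte gate, and 11.9, 16.2 and 12.9 CPM in the regulatory gate. Its fall in regulatory cells was 0.69 ± 0.14 on the log2 scale (adjusted p = 0.0014), but the call was lost at equal depth per cell (-0.63, adjusted p = 0.10), with stricter gates (-0.44, adjusted p = 0.067) and under the common limit on immediate early genes (-0.19, adjusted p = 0.57). Hspa12a and the HSP90 activator Ahsa1 were higher in preadipocyte cells (log2 fold changes 0.39 and 0.23), and Dnajb6 was lower (-0.24). Ahsa1 was not called under the common limit on immediate early genes (0.16, adjusted p = 0.13). Hspa4, Hspa14, Dnaja2 and Stip1, the adaptor between HSP70 and HSP90, gave values between -0.17 and 0.15 that did not pass the test. Hspb6 was near its detection limit, with at most 1.70 CPM in any gate.

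In the endoplasmic reticulum, the main HSP70, Hspa5 (BiP), was at 1762, 869 and 1818 CPM in the progenitor gate, 2017, 955 and 1812 CPM in the preadipocyte gate, and 1481, 847 and 1656 CPM in the regulatory gate. Its differences from the progenitor gate, 0.055 ± 0.070 (adjusted p = 0.52) and -0.14 ± 0.071 (adjusted p = 0.13), did not pass the test. Nor did that between preadipocyte and regulatory gates, 0.20 ± 0.071 (adjusted p = 0.062). With library size only, no filter on low counts, thinned cells or either limit on immediate early genes, it was called higher in preadipocyte cells (0.23 to 0.35). Hsp90b1 (GRP94) was at 1247, 798 and 1207 CPM, 1084, 689 and 1033 CPM, and 1164, 776 and 1134 CPM in the progenitor, preadipocyte and regulatory gates. It fell by 0.27 ± 0.058 on the log2 scale in preadipocyte cells (adjusted p = 0.0018). The BiP co-chaperone Dnajc3 was also lower there (-0.21 ± 0.066, adjusted p = 0.015) and Dnajb11 higher (0.17 ± 0.064, adjusted p = 0.036). The call of Dnajc3 was lost without mouse 1 and also without mouse 3, and that of Dnajb11 without mouse 2 and also without mouse 3. The values of Hspa13 (0.048) and Dnajb9 (0.12) did not pass the test.

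The endoplasmic stress element, CCAAT with CCACG after a gap of 9 bases on either strand, was found before the start of Hspa5, Hsp90b1 and Dnajc3, which is 3 of 5 endoplasmic members in the RefSeq table, and in 0.130% of all genes there. It is shown because none of the 11 inducible, 9 constitutive and 3 mitochondrial members in that table held it (GRCm38.p6, the 2 parts of the element in capitals). Members of these classes without a RefSeq window could not be searched. The stretches lie at chr2:34772020-34772048 on the plus strand, where a transcript is annotated, at chr10:86705511-86705678 on the minus strand, where it occurs in both orientations, and at chr14:118937805-118937867 on the plus strand.
Hspa5: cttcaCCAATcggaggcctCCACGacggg
Hsp90b1: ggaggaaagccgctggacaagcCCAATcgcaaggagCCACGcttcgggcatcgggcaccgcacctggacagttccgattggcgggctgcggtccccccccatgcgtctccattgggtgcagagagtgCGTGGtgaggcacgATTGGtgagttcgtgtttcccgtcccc
Dnajc3: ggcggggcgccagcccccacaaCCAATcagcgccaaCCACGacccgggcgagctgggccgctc

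Among mitochondrial members, only the pair that forms the folding chamber of the matrix was called in the comparison of preadipocyte and progenitor cells. Hspd1 (HSP60) was at 190.0, 137 and 233 CPM in the progenitor gate, 443, 266 and 544 CPM in the preadipocyte gate, and 223, 153 and 288 CPM in the regulatory gate. The log2 fold changes were 1.08 ± 0.065 between preadipocyte and progenitor gates (adjusted p = 3.1e-08) and 0.85 ± 0.071 between preadipocyte and regulatory gates (adjusted p = 2.8e-06). Its lid, Hspe1 (HSP10), was at 189, 264 and 193 CPM in the progenitor gate and 341, 466 and 411 CPM in the preadipocyte gate, a log2 fold change of 0.86 ± 0.071 (adjusted p = 5.5e-07). Hspa9, the mitochondrial HSP70, and Trap1, the mitochondrial HSP90, gave -0.12 and 0.060, which did not pass the test. Without Hspd1 and Hspe1 the mitochondrial log2 ratio of preadipocyte to progenitor sums was -0.0336 instead of 0.82.

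Hspd1 (chr1:55077835-55088243, minus strand) and Hspe1 (chr1:55088132-55091307, plus strand) start head to head, and these spans overlap. The DNA before Hspe1 holds the heat shock element with more than 2 units, at chr1:55088053-55088082, where a transcript is annotated. That stretch lies inside the span of Hspd1, with its units 144 to 127 bases before a RefSeq start of Hspd1. It is read here on the strand of each gene and shown because these neighbours rose together (RefSeq, GRCm38.p6, units and gaps in capitals).
Hspd1: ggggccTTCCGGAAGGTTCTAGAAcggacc
Hspe1: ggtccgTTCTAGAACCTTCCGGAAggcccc

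Heat shock elements were searched on both strands in the 250 bases before each start site of 28 members found in the RefSeq table. A pair of units, GAANNTTC or TTCNNGAA, was found in 6 of 11 inducible members (Hspa1a, Hspa1b, Hspb1, Hsph1, Dnaja1 and Dnajb4), in 2 of 9 constitutive members (Hspb6 and Dnajb6), in 2 of 3 mitochondrial members and in 0 of 5 endoplasmic members. Of all genes with a RefSeq window, 14.5% held it. The longer element, GAANNTTC followed by NNGAA or TTCNNGAA followed by NNTTC, contains the pair and was found in Dnajb6, Hspd1 and Hspe1, and in 0.514% of all genes. Hspb1 carries 2 separate pairs and not the longer element (chr5:135887780-135887851, plus strand, pairs in capitals). It is shown because it was not called higher in preadipocyte than in progenitor cells, unlike Hspd1 and Hspe1. Its call as lower there was lost without mouse 1 or mouse 2. The longer element did not go with a rise in each member that held it. Dnajb6 was called lower in preadipocyte than in progenitor cells (-0.24), a call lost without mouse 3. Hspa1a, Hspa1b, Hsph1, Dnaja1 and Dnajb4, with the pair alone, were called higher, and Hspb6 was not called. Of the searched inducible members without the pair, Dnajb1 and Bag3 were called higher, Hspa4l and Hspb8 lower, and Chordc1 was not called. A match of letters is a description and not a measured binding site.
Hspb1: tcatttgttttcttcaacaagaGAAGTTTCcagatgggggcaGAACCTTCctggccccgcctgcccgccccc

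Regulatory cells differed from progenitor cells in 21 members, of which 11 were higher and 10 lower, in a comparison that shares the progenitor sums with the previous one. Among all genes tested, 19% were higher and 24% lower. Of the inducible members 7 were higher and 1 lower, of the constitutive members 1 was higher and 7 lower, of the endoplasmic members 1 was higher and 1 lower, and of the mitochondrial members 2 were higher and 1 lower. Beside Hspa1b, Dnajb1, Hspb8, Bag1 and Hsf1, given above with the largest changes, Hsph1 and Dnaja1 (each 0.60), Hspe1 (0.43) and Bag3 (0.38) were higher. The HSP110 relative Hspa4 was lower (-0.57), as were the mitochondrial HSP70 Hspa9 (-0.51), the HSP40 genes Dnaja2 (-0.41), Dnajb6 (-0.38) and Dnajb9 (-0.29), Stip1 (-0.27) and Hsp90ab1 (-0.23). Without each mouse in turn 15 calls were kept, and Ahsa1, Dnajb11, Dnajb9, Hsp90ab1, Hspd1 and Stip1 lost theirs at least once. Under the common limit on immediate early genes, which left 62, 141 and 70 regulatory cells, 11 members were called, 4 higher and 7 lower. The share of all genes called under that limit was not counted.

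Between preadipocyte and regulatory cells, 22 members differed, 17 of them higher and 5 lower in preadipocyte cells, beside 13.4% and 12.3% of all genes tested. These were 7 inducible, 6 constitutive, 1 endoplasmic and 3 mitochondrial members that were higher, and 3 inducible and 2 endoplasmic members that were lower. Hsp90aa1 differed most, by 0.90 ± 0.075 (adjusted p = 2.8e-06), followed by Cryab, Hspb1, Hspd1 and Hspa4l (-0.81 ± 0.14, adjusted p = 8.4e-04). Hspa4l was at 18.1, 13.8 and 26.2 CPM in preadipocyte cells and at 37.2, 24.9 and 35.6 CPM in regulatory cells, and its adjusted p was 0.30 at equal depth per cell. The calls of Chordc1, Dnajb1 and Hsf1 were lost without mouse 1 and also without mouse 3, and that of Hspa4 without mouse 2. That of Hsp90b1 was lost whichever mouse was left out (adjusted p = 0.10, 0.18 and 0.12 without mouse 1, 2 and 3). In all, 14 members were called under the common limit on immediate early genes, where the share of all genes called was not counted.

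Genes that work with the members were counted from lists in the same tests, to be read beside the shares of all genes given above for each comparison. Of 33 cytosolic partners tested, 8 were higher and 6 lower in preadipocyte than in progenitor cells, with a median log2 fold change of 0.0063. In regulatory cells 4 were higher and 12 lower than in progenitor cells, with a median of -0.19, and 10 were higher and 3 lower in preadipocyte than in regulatory cells. The largest rises in preadipocyte over progenitor cells were in Dnaja4 (0.78), an HSP40, and in the ubiquitin gene Ubb (0.62), and the largest falls in Hspa2 (-1.19), an HSP70, and in the heat shock factor Hsf2 (-0.90). Of 13 subunits of the chaperonin TRiC and of prefoldin, which fold actin and tubulin, 2 were higher and 3 lower in preadipocyte cells, while 1 was higher and 9 were lower in regulatory than in progenitor cells. Cct5 gave -0.51 and Tcp1 -0.45 in that last comparison. Between preadipocyte and regulatory cells, 6 of these 13 were higher and 1 was lower.

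Of 27 further genes of endoplasmic folding and stress, 5 were higher and 9 lower in preadipocyte cells. Serpinh1, the collagen chaperone HSP47, rose by 0.82 ± 0.078 (adjusted p = 2.2e-06) from 1281, 1476 and 1184 CPM to 2295, 2441 and 2447 CPM. Xbp1, a transcription factor of the unfolded protein response, rose by 0.59, while Sdf2l1, a partner of BiP (-1.001), and the stress-induced Trib3 (-2.78) fell, Trib3 from levels of at most 5.92 CPM. Of 9 mitochondrial partners, 2 were higher, of which Grpel1, the nucleotide exchange factor of Hspa9, changed most (0.65). In regulatory cells, 4 of these 9 were higher than in progenitor cells and the small heat shock gene Hspb2, the neighbour of Cryab, rose most among cytosolic partners, from at most 5.08 CPM to between 17.0 and 33.0 CPM.

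Hsph1, Hspa4 and Hspa5 differed most between mice. Over all kept cells, the ratio of the highest to the lowest mouse had a median of 1.37 over 33 members at 20 CPM or more and of 1.31 over 5574 genes. The ratio was 2.99 for Hsph1, more than for 99.7% of genes, 2.25 for Hspa4 and 2.07 for Hspa5. Mouse 2 was lowest in 9 of 10 constitutive and 5 of 6 endoplasmic members, beside 52.3% of all genes, and in 7 of 13 inducible members, while mouse 1 was lowest in the other 6 of these. Each mouse is 1 library, so animal and library cannot be told apart.

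Several inducible members varied between the cells of a gate by more than counting noise. When each cell was thinned to 3000 UMIs, the ratio of variance to mean of UMIs per cell (the Fano factor, about 1 for counting noise alone) was 2.86, 5.68 and 4.06 for Hspa1a in the progenitor gate and 4.67, 6.85 and 6.95 in the preadipocyte gate. It was 4.26, 7.05 and 5.59 for Hspb1 and 2.98, 4.50 and 4.93 for Cryab in the progenitor gate. These genes, with Dnajb1, Hsp90aa1 and Hspa1b, lay above the 90th percentile of genes with a mean of at least 0.3 UMIs in every mouse. In the progenitor gate this held for 6 of 10 inducible members with that mean, 1 of 5 constitutive (Hspa8), 1 of 4 endoplasmic (Hspa5) and 0 of 2 mitochondrial members. In the preadipocyte gate it held for 6 of 11 inducible members, Dnaja1 taking the place of Cryab, for Hspa8, and for 0 of 4 endoplasmic members. Hspb8, Bag3 and Dnajb4 stayed at 1.28 to 1.59 in the progenitor gate. The Fano factor grows with the mean for a given relative spread, and the levels of the classes differ, so these counts describe the members and do not show that 1 class varied more than another.

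**Figure D4:**
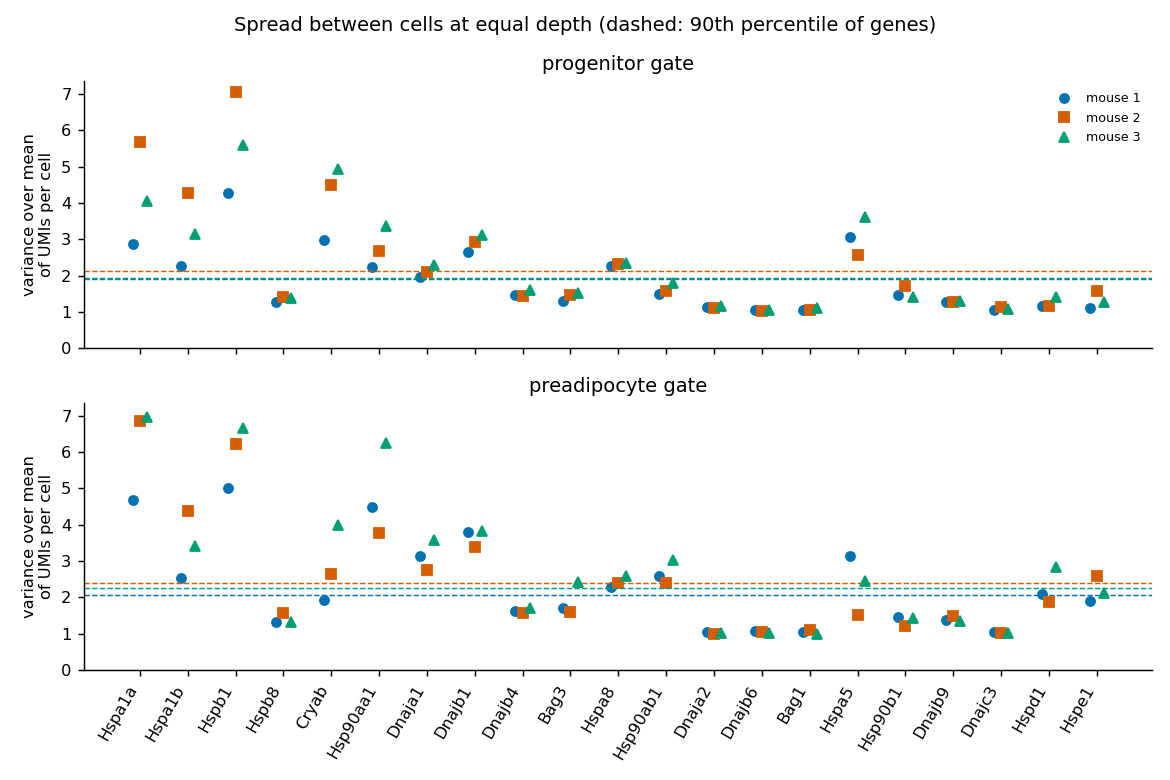
Fano factor (variance over mean of UMIs per cell, cells thinned to 3000 UMIs, y axis from 0) of members with a mean of at least 0.3 UMIs in every mouse of both gates, with 1 symbol per mouse and the 90th percentile of genes as dashed lines. Hspb1 reaches 7.05 in the progenitor gate and Hspa1a 6.95 in the preadipocyte gate, while Dnaja2, Dnajb6, Bag1 and Dnajc3 sit near 1.

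To see which members went with Hspa1a from cell to cell, the 25% of thinned cells with most Hspa1a UMIs (Hspa1a-high cells) were compared with the 25% with least (Hspa1a-low cells) in each gate and mouse. Hspa1a-low cells held 0 Hspa1a UMIs, and Hspa1a-high cells had means between 3.49 and 11.8 per cell. Hspa1a ranked the cells and was left out of the counts, and Hspb6 did not pass the filter. Levels in this contrast are those of the thinned cells. In the progenitor gate 12 of 33 members were higher and 2 lower in Hspa1a-high cells, beside 2.12% and 4.87% of 9758 other genes tested. In the preadipocyte gate 10 were higher and 2 lower, beside 1.82% and 5.98%, and in the regulatory gate 6 were higher and 0 lower, beside 0.215% and 0.461%. Of 6 endoplasmic members 0 were higher in any gate by this ranking at an adjusted p under 0.05. When cells were ranked by Dnajb1 instead, Dnajb9 (0.28, adjusted p = 3.6e-04) and Hspa5 (0.17, adjusted p = 0.013) were higher in progenitor cells and Dnajb9 (0.38, adjusted p = 0.0049) in preadipocyte cells. At an unadjusted p under 0.05 in the ranking by Hspa1a, 1, 3 and 3 endoplasmic members differed in either direction in the progenitor, preadipocyte and regulatory gates.

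Without mouse 3 the calls fell from 14 to 8 in the progenitor gate and from 12 to 7 in the preadipocyte gate. Of the list of 14 immediate early genes, 7 were higher and 1 lower in Hspa1a-high than in Hspa1a-low progenitor cells, and 5 were higher and 1 lower in preadipocyte cells. Their sum in progenitor cells was 17682, 16978 and 12841 CPM in Hspa1a-low and 23443, 21662 and 20497 CPM in Hspa1a-high cells. Their part in the differences was not tested.

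Hspa1b was at 118, 110.0 and 166 CPM in Hspa1a-low and 425, 949 and 788 CPM in Hspa1a-high progenitor cells, a log2 fold change of 2.28 ± 0.13 (adjusted p = 3.0e-13), with the reservation above that it shares sequence with Hspa1a. Hsph1 was at 113, 42.5 and 143 CPM in Hspa1a-low and 239.6, 180.0 and 449.9 CPM in Hspa1a-high progenitor cells, a log2 fold change of 1.45 ± 0.12 (adjusted p = 2.3e-09). Hspb1, whose call as lower in the preadipocyte gate as a whole was lost without mouse 1 or mouse 2, went with Hspa1a inside each gate. It was at 159, 147 and 200.0 CPM in Hspa1a-low and 363, 577 and 772 CPM in Hspa1a-high preadipocyte cells, with log2 fold changes of 1.14 ± 0.12, 1.61 ± 0.14 and 1.62 ± 0.19 in the progenitor, preadipocyte and regulatory gates. Its adjusted p was 8.0e-08, 1.0e-09 and 3.1e-06 in these gates.

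Hsp90aa1 rose in the Hspa1a-high cells of every gate, by 0.78 ± 0.083, 1.01 ± 0.085 and 0.81 ± 0.11 in the progenitor, preadipocyte and regulatory gates. In preadipocyte cells it went from 1822.5, 933 and 1596 CPM to 3081, 2132 and 4122 CPM (adjusted p = 7.9e-10). Hsp90ab1 was higher in all gates as well (0.37, 0.75 and 0.42), and Hspa8 in the progenitor gate (0.30). Without mouse 3 the calls of Hsp90ab1 and Hspa8 in the progenitor gate were lost (adjusted p = 0.14 and 0.12). The call of Hsp90ab1 in the regulatory gate was lost without mouse 2 or mouse 3 (adjusted p = 0.34 and 0.47). Hspa4 (-0.30) and Hspa9 (-0.38) were called lower in progenitor cells. Both calls were lost with DESeq2, without mouse 3, at 1500 UMIs per cell (-0.069 and -0.29) and with cells ranked by Dnajb1 (-0.038 and -0.16), and that of Hspa4 also without mouse 2 and with library size only. Hspb8 and Bag3, partners in chaperone-assisted autophagy, gave log2 fold changes of -0.12 and -0.0058 in progenitor cells, which did not pass the test. Bag3 depended on the ranking and was higher by 0.28, 0.55 and 0.73 in the progenitor, preadipocyte and regulatory gates when cells were ranked by Dnajb1 (adjusted p = 8.9e-05, 3.4e-10 and 0.0011). In preadipocyte cells ranked by Hspa1a, where its value was 0.28 (adjusted p = 0.088), it was also called higher at 1500 UMIs per cell (0.51), without mouse 2 (0.46) and with library size only (0.37). The main endoplasmic chaperones gave 0.029 ± 0.066 for Hspa5 and -0.18 ± 0.065 for Hsp90b1 in progenitor cells and did not pass the test (adjusted p = 0.88 and 0.11). In preadipocyte cells Hspa5 was lower in Hspa1a-high cells (-0.25 ± 0.068, adjusted p = 0.019), a call lost without mouse 3 (adjusted p = 0.18) and of opposite sign when cells were ranked by Dnajb1 (0.16).

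**Figure D5:**
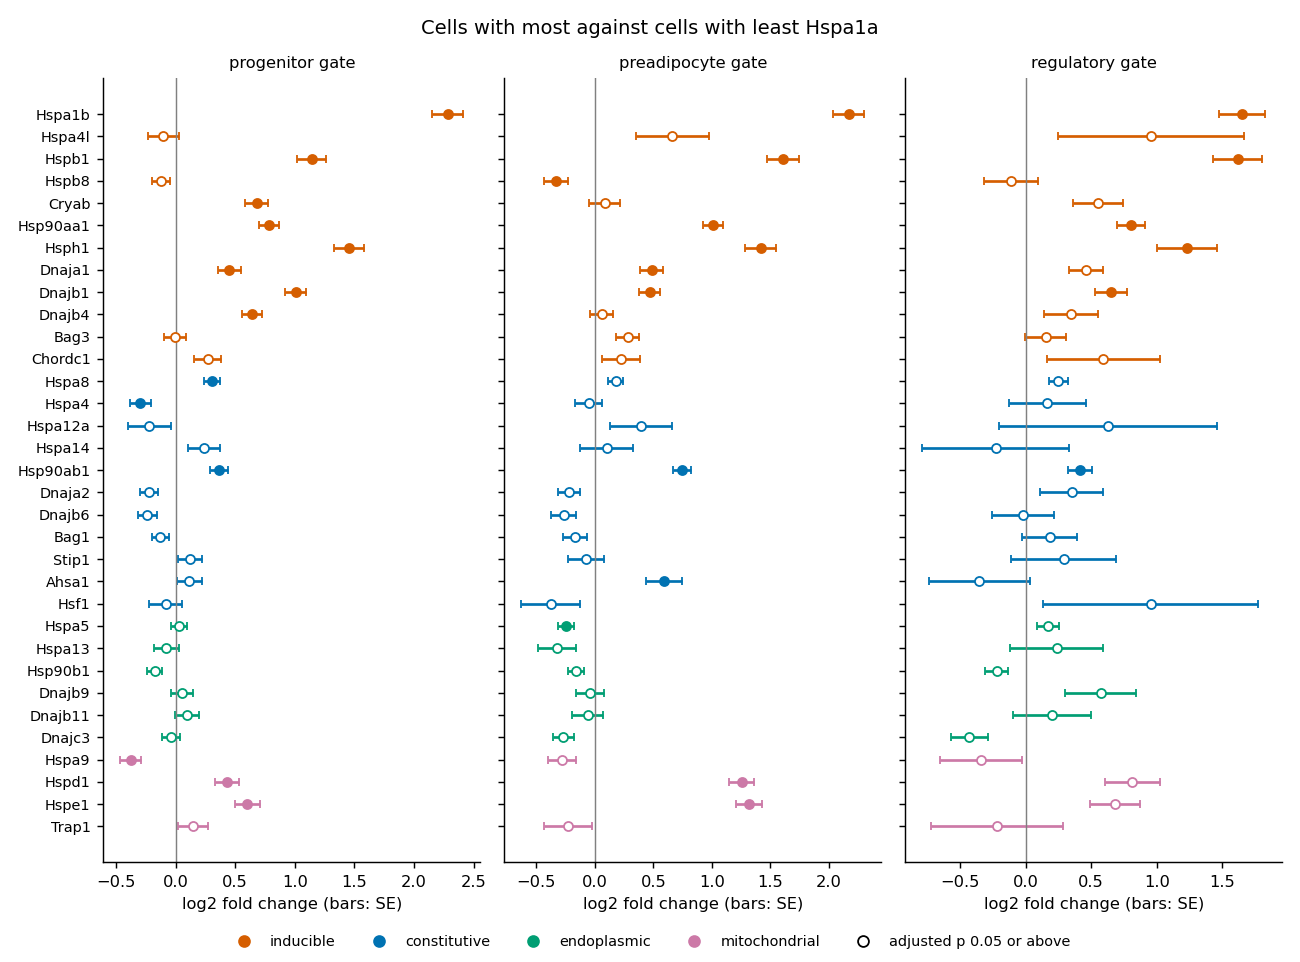
Log2 fold change (x axis, bars SE, edgeR on 3 mice) of 33 members between Hspa1a-high and Hspa1a-low cells of each gate, coloured by class. Filled points have an adjusted p under 0.05, and Hspa1b, Hspb1, Hsph1 and Hsp90aa1 are filled in every panel, whereas Hspd1 and Hspe1 lie further right in the preadipocyte panel, at 1.25 and 1.32, than in the progenitor panel.

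The difference of this contrast between preadipocyte and progenitor gates was tested as an interaction, in which 4 of 33 members were called, beside 1.44% of all genes. The Hspa1a-high cells held more Hspa1a UMIs in the preadipocyte than in the progenitor gate of each mouse, so the contrasts compared are unequal in Hspa1a. The part of that inequality was not tested. Hspd1 rose from 329, 156 and 300.4 CPM in Hspa1a-low to 635, 446 and 932 CPM in Hspa1a-high preadipocyte cells, but from 180.4, 114 and 190.4 CPM to 211, 189 and 294 CPM in progenitor cells. Its log2 fold changes of 1.25 ± 0.11 and 0.43 ± 0.10 differed by 0.82 ± 0.15 (adjusted p = 0.0014). For Hspe1, the values of 1.32 and 0.60 differed by 0.72 ± 0.15 (adjusted p = 0.0087). Dnajb1 and Dnajb4 went the other way, with 0.47 and 0.058 in preadipocyte cells, 1.01 and 0.64 in progenitor cells, and differences of -0.54 ± 0.13 and -0.58 ± 0.13 (adjusted p = 0.019 and 0.016). None of these 4 calls was kept without each of the mice: 0 members were called without mouse 3, 2 without mouse 1 and 8 without mouse 2.

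Other marker genes divided the gates further. Progenitor cells with a UMI of Nr4a3 or Fosl1 had inducible sums of 3612, 3282 and 4833 CPM, below the 4566, 4911 and 6299 CPM of those without. Preadipocyte cells with a UMI of Cxcl9 had 6365, 5444 and 8049 CPM, below the 8393, 6610 (6609.9) and 10507 CPM of those without. Both comparisons used cells thinned to 3000 UMIs and were not tested.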

How the data were processed

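UMI counts per gene and cell barcode were deposited for 3 libraries, 1 per mouse, and the authors made them with Cell Ranger from 10x Genomics libraries that count the 3′ ends of transcripts. The header of the matrices names version 4.0.0 and the submitters' processing notes version 2.1.1, with genome mm10. The paper names another version, so which of them made the deposited counts is not known. Barcodes had already been limited by the authors to called cells, and neither a correction for ambient RNA nor a doublet caller was run here, so the gates and the removal of cells meeting more than 1 gate are the only guards against doublets. Duplicate reads had been collapsed by UMI. The counts are not normalised, and a gene with near-identical copies keeps only reads that could be placed.

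The members, classes and lists were chosen with earlier results of these data known. Counts were summed over the cells of each gate and mouse (9 sums) and tested with edgeR 4.0.16 (filterByExpr, TMM, quasi-likelihood, mouse as block, 1 fit for all gates) in R 4.3.3. P-values were adjusted by Benjamini-Hochberg over all genes tested, and calls were made at 0.05. For the comparison of Hspa1a-high and Hspa1a-low cells, cells were thinned to 3000 UMIs, shallower cells were left out, ties were broken in a seeded random order, and 18 sums were fitted with mouse within gate as block. Hspa1a stayed in that fit and was left out only of the counts of genes tested and called. Cells were never used as replicates. With mouse as a block, the precision rests on how alike the differences within mice were over 3 mice. The pairing comes from the sums of 1 animal being taken from 1 library. Deviations from the gate means correlated within mice at r between 0.153 and 0.676 over 13264 genes. Both fits were tested on simulated data with 200 genes changed in each. For the preadipocyte against progenitor gates 145 were recovered with 19 false calls among 13061 genes (59 of 100 at 1.5-fold and 86 of 100 at 2-fold). For the Hspa1a-high against Hspa1a-low progenitor cells 155 were recovered with 11 false calls among 9348 genes. The simulated data held no differences between mice and fewer changed genes than were called here, so these numbers hold for that setting only.

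Members with values in the text were those of a fixed list and, in each gate contrast, the 5 with the largest change that were called, had the same sign in each mouse and reached 20 CPM in a gate, and in each contrast of Hspa1a-high and Hspa1a-low cells the 5 called with the largest change. Alternatives were RLE size factors, library size only, DESeq2 1.42.0, no filter, no block, each mouse left out, cells thinned to 3000 UMIs (1500 for the contrast by Hspa1a), stricter gates, 10% mitochondrial UMIs, other cells left out, only cells under the median of their mouse and gate by immediate early genes, Dnajb1 as the ranking gene, other class membership, each class without its most abundant member and, added after seeing the data, 1 common limit on immediate early genes. For the gate comparisons, thinned cells were gated again by their thinned counts. This left 1367, 736 and 1228 preadipocyte and 153, 234 and 218 regulatory cells in mice 1, 2 and 3. Promoter windows came from RefSeq (GRCm38.p6) for 28 of 35 members, and coordinates of genes from GENCODE M21 on GRCm38. Windows inside an annotated transcript were shortened to 30 bases or less.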

Additional observations from a re-analysis of the deposited data

Results flagged for a closer look

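The contrast between cells with most and least Hspa1a UMIs differed between the preadipocyte and progenitor gates in 4 members, by a test of the difference itself in edgeR. The difference of log2 fold changes (preadipocyte minus progenitor) was 0.82 for Hspd1, 0.72 for Hspe1, -0.54 for Dnajb1 and -0.58 for Dnajb4. All 3 mice went into each value, no explanation was weighed, and the calls depended on the mice included, as given above.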

How the results depend on the processing

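With mouse as a block, since the gates of 1 mouse come from 1 animal (replicate pairing), 24, 21 and 22 members were called between preadipocyte and progenitor, regulatory and progenitor, and preadipocyte and regulatory gates. Without the block the counts were 12, 9 and 3, those of Hspa1a-high against Hspa1a-low cells 1, 5 and 0 in the progenitor, preadipocyte and regulatory gates, and that of the difference of this contrast between gates 0. Leaving out each mouse gave 19 to 23, 17 to 19 and 18 to 20 members for the gates, 8 to 14, 7 to 14 and 4 to 8 for Hspa1a-high against Hspa1a-low cells, and 0 to 8 for the difference of this contrast between gates, which was 1 with DESeq2. Under the common limit on immediate early genes 19 members were called between preadipocyte and progenitor gates. There were 11 between regulatory and progenitor gates and 14 between preadipocyte and regulatory gates. Shares of all genes called were not counted in these alternatives. The causes of these changes, the smaller number of mice or cells among them, were not tested.

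Class ratios (log2, preadipocyte over progenitor, regulatory over progenitor, preadipocyte over regulatory) moved in several settings. The common limit gave 0.37, 0.15 and 0.22 for inducible members, 0.091 and -0.31 (first 2 ratios) for constitutive members, and 0.46, 0.053 and 0.41 for mitochondrial members. In cells under the median of their mouse and gate by immediate early genes the inducible ratios were 0.58 (regulatory over progenitor) and 0.28 (preadipocyte over regulatory), the constitutive -0.11 (regulatory over progenitor), and the mitochondrial 0.67 and 0.47 (preadipocyte over progenitor and over regulatory). With Hspa8, Stip1, Ahsa1, Hspd1 and Hspe1 counted as inducible, the regulatory over progenitor ratio was 0.32 for inducible and -0.32 for constitutive members, the constitutive preadipocyte over progenitor ratio 0.094, and the mitochondrial ratios -0.0336, -0.43 and 0.40, the first 2 with changed sign. Without the most abundant member, ratios were 0.49 for inducible members (regulatory over progenitor), 0.099 and -0.31 for constitutive members, -0.13 and -0.099 for endoplasmic members (preadipocyte over progenitor and over regulatory), and -0.009 and 0.76 for mitochondrial members (regulatory over progenitor, with changed sign, and preadipocyte over regulatory). Stricter gates gave 0.44 for inducible and -0.11 for constitutive members (regulatory over progenitor). That constitutive ratio was -0.12 in thinned cells, -0.11 with 10% mitochondrial UMIs and -0.11 without other cells, and the mitochondrial preadipocyte over progenitor ratio was 0.94 in thinned cells.

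Changes of sign are given only for members called in the fits above or in the alternative. Hspa1b between preadipocyte and regulatory gates, given above, was called in neither. Under the common limit these members were Hsp90ab1 (-0.15) between preadipocyte and progenitor gates and Bag3 (-0.024) between regulatory and progenitor gates. In thinned cells Ahsa1 (-0.0070) changed sign between regulatory and progenitor gates. With cells ranked by Dnajb1, they were Bag3 (0.28) in progenitor cells and Dnajb9 (0.38), Hspa5 (0.16) and Hspb8 (0.067) in preadipocyte cells. The regulatory gate, with 270 to 404 cells per mouse, held 209, 342 and 295 cells with at least 3000 UMIs in mice 1, 2 and 3. Its Hspa1a-high and Hspa1a-low cells numbered 52, 85 and 73 each, which limits what can be called between them.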

Other observations

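Cells outside the gates also carried the members. Those that met no gate had inducible sums of 6209.9, 5314 and 7508 CPM and mitochondrial sums of 664, 661 and 759.8 CPM in mice 1, 2 and 3. The cells that met more than 1 gate, 49, 119 and 96 of them, had inducible sums of 5353, 5763 and 8396 CPM.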
